A study of Sus scrofa with 67 samples.

Results

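The genes described here are 94 genes whose read share in the porcine endometrium was at least 4 times higher on day 9 of the oestrous cycle than on day 0 and remained at or above 0.5 of that level on day 12, while ovary and oviduct showed no comparable difference. The 94 members were chosen by the measured values themselves out of 25322 genes in the count table, of which 21946 had a count in any library. For each gene, counts were expressed as CPM, which scales each count by the total of its library, averaged over the libraries of a tissue and day, and raised by 1. Members had a day 9 to day 0 ratio of these means of 4 or more in the endometrium, a ratio above 0.5 and under 2 in both other tissues, and an endometrium mean on day 12 of at least 0.5 times that of day 9. Of 340 genes that met the first condition, 167 also met the day 12 condition, and 94 of these were flat in ovary and oviduct. The rule also left out 2 identifiers, of which 0 met the other conditions. The endometrium of days 0, 9 and 12 and the other tissues of days 0 and 9 therefore describe the selection and were not tested. Tests were confined to days 3, 6, 15 and 18, and to day 12 in ovary and oviduct.

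After ovulation the corpora lutea secrete progesterone, and the endometrium answers with growth and secretion of its luminal and glandular epithelium, which supply the histotroph that nourishes an early conceptus. When no conceptus is present, prostaglandin F2α from the endometrium ends the life of the corpora lutea, progesterone falls, and the next follicular phase begins. The luteal epithelium of the uterus is known for its nutrient and ion transporters and for the proteins it secretes into the lumen.

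RNA was sequenced from the endometrium, freed of myometrium and taken from the middle of the uterine horns, from the ampulla of the oviduct, and from 1 whole ovary of crossbred (Landrace × Yorkshire) gilts aged 6 to 8 months. Tissues were collected on 7 days of the cycle, at 3-day steps from day 0, the onset of oestrous behaviour, to day 18, with no treatment or genetic change in any group. The table held 66 libraries in 21 groups of tissue and day, of which 2 groups had 2 libraries, 14 had 3 and 5 had 4, with totals from 8962103 to 13442083 counts. At these depths 3 counts, taken as the floor of detection, correspond to 0.223 to 0.335 CPM. Since the tissues were sequenced in bulk, fewer cells of a type and less RNA per cell cannot be told apart. The labels do not tie a library to an animal, so the p-values measure the spread between these libraries. By the methods 3 gilts were used per day, so that the 5 groups of 4 libraries, endometrium day 15 among them, hold more libraries than animals named there, and p-values that rest on them may be too small. On day 6 OVGP1, the oviductal glycoprotein, was between 3277 and 24611 CPM in the oviduct. It was at 185 to 657 CPM in the ovary and 1.20 to 4.33 CPM in the endometrium. The summed level of 5 epithelial markers overlapped between endometrium (2326 to 5117 CPM) and oviduct (2188 to 2756 CPM). The summed level of 4 smooth muscle markers was 41.3 to 86.6 CPM in the endometrium of that day against 4049 to 8171 CPM in the oviduct.

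On the days tested, a pair of endometrial libraries stood apart in the members, and each is named beside the results it touches. On day 15, library 2 had the highest value of the 4 libraries for 86 of the 94 members, while it was the highest for 39.0% of the 14945 genes with 1 CPM in any library of that day. In that library 91 members were at or above the lowest library of days 9 and 12, against 15 to 20 members in each of the 3 other libraries of day 15. On day 18, library 1 was the highest for 59 members, against 26.8% of all genes with 1 CPM on that day. On day 9, which the rule used, library 3 was the highest for 65 members, against 41.1% of such genes.

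**Figure D1:**
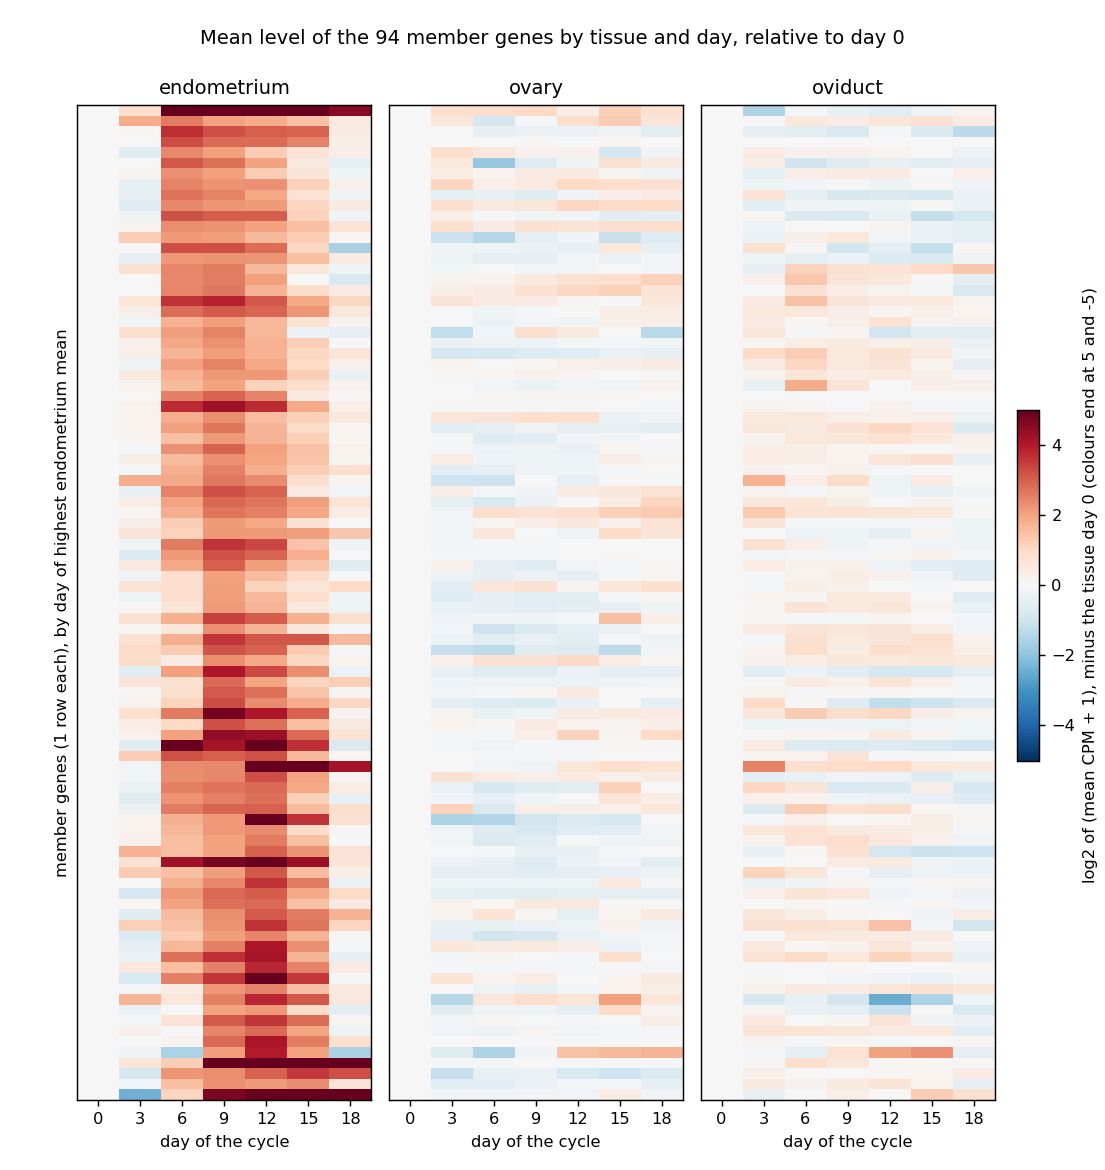
Mean level of each of the 94 members (rows, ordered by the day of the highest endometrial mean) by day (columns) in the 3 tissues, as log2 of mean CPM + 1 minus the same tissue's day 0, with colours ending at 5 and -5. The endometrial block is high from day 6 to day 12, whereas ovary and oviduct show no shared block, a contrast that the choice of members fixes for days 0 and 9.

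Within the endometrium the day 9 to day 0 ratio of the members ran from 4.02 to 48.0, with a median of 5.76, where the median over 15285 genes with 1 CPM in a library of either day was 0.913. The ratio was 10 or more in 15 members and 20 or more in 6. The highest ratios were those of SLC16A6 (48.0), a member of the monocarboxylate transporter family, and NMU (47.5), which encodes the smooth muscle-contracting neuropeptide neuromedin U. They were followed by SLC5A1 (27.7), the sodium-glucose cotransporter SGLT1, and the unnamed genes ENSSSCG00000026522 (26.8) and ENSSSCG00000020659 (26.1). In ovary the ratios of the members had a median of 0.900, against 0.796 over all such genes, and in oviduct of 1.19, as over all such genes. Many of the members were barely detected outside the endometrium, since 34 had means under 1 CPM on both days in ovary and 21 in oviduct, where the added 1 holds the ratio near 1. At the border of the first condition MYOM1 lay just inside at 4.02 and ABCB9 just outside at 3.98, while VEPH1 kept 0.503 of its day 9 level on day 12 and ENSSSCG00000027241 kept 0.498. In ovary, SLC16A6 (1.97) was the member nearest the upper limit and ADRA2C (2.02) the nearest gene beyond it, and at the lower limit these were ENSSSCG00000022435 (0.522) and SLC24A4 (0.477). In oviduct the corresponding genes were SMOC1 (1.90) and CLDN23 (2.06), and CCL28 (0.518) and PLA2G4F (0.496). Leaving out each library of the rule in turn gave 71 to 107 members, and 43 of the 94 were chosen every time, the fewest members being left without library 3 of endometrium day 9.

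The members did not share a single time course in the endometrium. The highest mean fell on day 9 in 47 members, on day 12 in 31, on day 6 in 13 and on day 15 in 3. On day 3, 85 members had a mean between 0.5 and 2 times that of day 0, whereas on day 6 the mean was already at least 0.5 of that on day 9 in 63 members and reached or passed it in 15. Another 12 were still under 0.25 of their day 9 level on day 6. On day 12, 36 members were above their day 9 mean, and 14 of them by 2 times or more. By day 18 the mean was within 0.5 to 2 times that of day 0 in 78 members, but it was still 4 times or more above day 0 in 5.

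**Figure D2:**
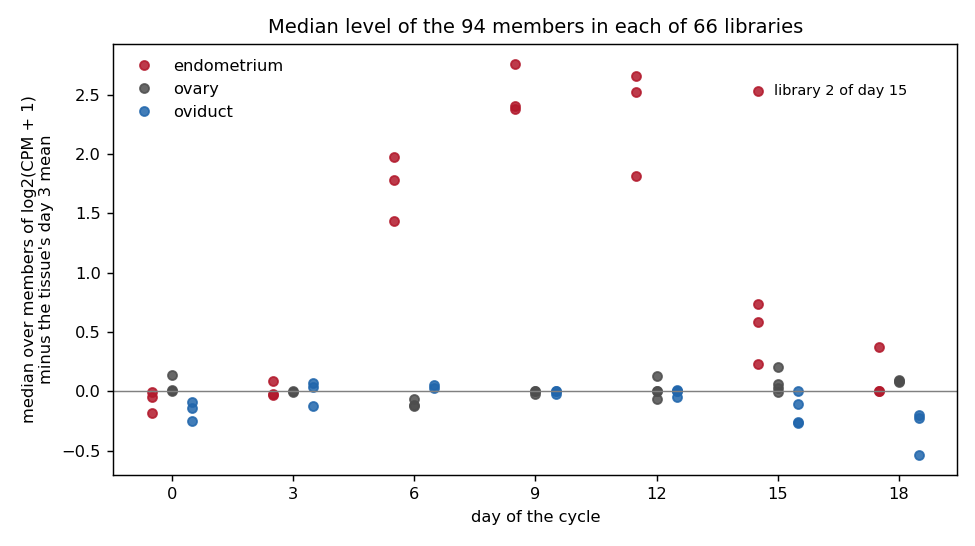
Median over the 94 members of log2(CPM + 1) minus the tissue's day 3 mean (vertical axis), 1 point per library, by day of the cycle (horizontal axis) and tissue. The endometrial libraries of day 6 lie between 1.44 and 1.98, library 2 of day 15 lies at 2.53 among the libraries of days 9 and 12, and the 3 other libraries of day 15 lie between 0.23 and 0.73.

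Day 6 was compared with day 3 to ask whether the members were already raised in the early luteal phase, on days that the choice of members did not use. Of the 94 members, all of which passed the filter on low counts, 56 were called higher on day 6, against 8.86% of all 15341 genes tested, and 0 were called lower, against 10% of all genes tested. The median log2 fold change of the members was 2.44, and 2.43 with genes absent on day 3 set at their lower bound, where the median of all genes was -0.01. A total of 69 members had every day 6 library above every day 3 library, whereas 11.6% of genes with 1 CPM on either day did. The tests used edgeR's quasi-likelihood test in a model of all endometrial libraries with Benjamini-Hochberg adjustment over all genes, and called genes at an adjusted p under 0.05. The count was 66 when only the libraries of days 3 and 6 were fitted, so that no library of the rule entered.

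**Figure D3:**
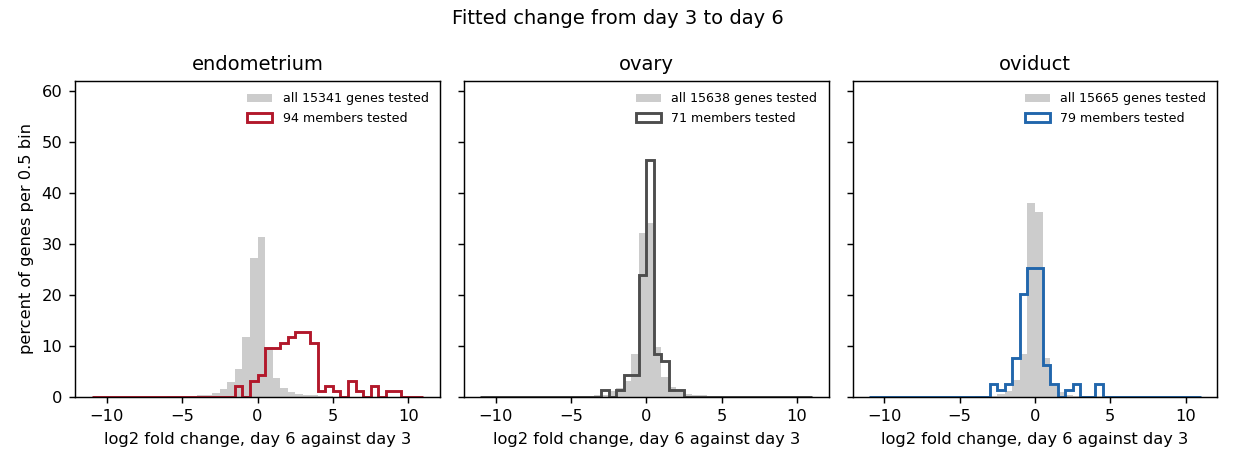
Distribution of the fitted log2 fold change of day 6 against day 3 (horizontal axis) as percent of genes per bin (vertical axis), for all genes tested (grey) and for the members that passed the filter (outline), in each tissue. The members' median is 2.44 in endometrium, 0.09 in ovary and -0.16 in oviduct.

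The members were grouped by role after membership was seen. The count called higher in each role, here and below, is to be read beside 56 of all 94 members and 8.86% of all genes. Differences between roles were not tested. Among 11 members that encode enzymes, 8 rose from day 3 to day 6. OGDH, a subunit of the 2-oxoglutarate dehydrogenase complex of the citric acid cycle, was at 491, 406 and 547 CPM in the libraries of day 3 and 5482, 5857 and 4341 CPM in those of day 6, and stayed between 3857 and 5429 CPM in all 6 libraries of days 9 and 12. The libraries of day 3 and day 6 did not overlap, and the log2 fold change was 3.63 ± 0.65 (approximate SE), with an adjusted p of 0.00098. PC, pyruvate carboxylase, which feeds the same cycle with oxaloacetate, rose from 16.9, 11.4 and 20.3 CPM to 173, 143 and 88.9 CPM (log2 fold change 3.24 ± 0.40, adjusted p = 9.67e-05). ABHD4, a hydrolase of N-acyl phospholipids, was at 74.9, 84.0 and 64.3 CPM on day 3 and at 765, 596 and 461 CPM on day 6 (3.22 ± 0.30, adjusted p = 7.87e-06). ACSL3, which activates long-chain fatty acids, was at 131, 150 and 301 CPM on day 3 and 1204, 818 and 616 CPM on day 6 (2.37 ± 0.40, adjusted p = 0.00071). Both had their highest mean on day 6. AGMO, the monooxygenase that cleaves ether lipids, followed another course, with 0 counts on day 3, up to 1.78 CPM on day 6 and 9.59 to 15.5 CPM on day 12, and its day 6 difference did not pass the test (adjusted p = 0.247). ACSL3, ABHD4, OGDH and AGMO are named by the rule for named genes, and PC was chosen after its values were seen.

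Among 6 members that encode transporters and channels, 2 rose by day 6. SLC16A6 had the steepest early rise of the group, from 2.14, 1.004 and 3.01 CPM on day 3 to 335, 608 and 99.5 CPM on day 6, and the groups lay far apart (log2 fold change 7.57 ± 1.31, adjusted p = 0.00081). Its level was lower again on day 9, at 107, 72.6 and 62.6 CPM, and on day 18 it ranged from 1.93 to 109 CPM, the highest being library 1. SLC5A1, which carries glucose into cells with sodium, was later. It measured 35.3, 29.4 and 31.2 CPM on day 3, 98.4, 79.2 and 152 CPM on day 6 and 515, 421 and 577 CPM on day 9. All its day 6 libraries were above all day 3 libraries, but the difference did not pass the test (1.97 ± 0.98, adjusted p = 0.176). SLC9A4, a sodium-hydrogen exchanger, stood at 10.99, 7.36 and 5.30 CPM on day 3, 11.4, 21.9 and 18.0 CPM on day 6 and 111, 61.8 and 82.2 CPM on day 12, and its day 6 difference did not pass the test either (1.30 ± 0.58, adjusted p = 0.126). In ovary and oviduct it did not exceed 0.101 CPM in any library. The second transporter that rose, named after its values were seen, was ATP8A1, a flippase that moves aminophospholipids across membranes (3.32 ± 0.63, adjusted p = 0.0015).

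Of the 13 secreted and matrix proteins, 7 rose by day 6. CCL28, a chemokine of mucosal epithelia, was at 34.9, 37.9 and 86.1 CPM on day 3 and at 458, 505 and 550 CPM on day 6 (log2 fold change 3.44 ± 1.13, adjusted p = 0.039). Its libraries did not overlap between these days, yet the call was lost in 7 of 11 alternatives, whose adjusted p ranged from 0.00192 to 0.137. OPTC, opticin, a small leucine-rich proteoglycan, rose from 0.715, 0.669 and 0.831 CPM to 116, 95.8 and 36.6 CPM (6.97 ± 1.41, adjusted p = 0.0024). MUC6, a gel-forming mucin, rose from 0.268, 0.112 and 0.104 CPM to 2.74, 10.1 and 18.7 CPM on day 6, and reached 198, 88.1 and 69.7 CPM on day 12 (day 6 against day 3, 6.06 ± 1.54, adjusted p = 0.010). AFP, alpha-fetoprotein, was at 0 counts in all libraries of days 0 and 3 and at 3.69, 5.55 and 4.99 CPM on day 6, at least 47.6-fold higher when day 3 is set at a floor of 3 counts over the group (adjusted p = 0.0036). CCK, cholecystokinin, was at 0 counts on day 3 and 6.54, 2.13 and 9.72 CPM on day 6, at least 61.1-fold higher on the same terms (adjusted p = 0.039, lost in 7 of 11 alternatives with a range from 0.00291 to 0.110).

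The other secreted members followed different courses. SMOC1, a calcium-binding matricellular protein, had 2 counts in all on day 3, a level of 6.33, 4.81 and 3.92 CPM on day 6 and one of 166, 51.1 and 120 CPM on day 12. Its day 6 level was 73.7-fold that of day 3, with a 95% counting interval from 20.1 to 614 (adjusted p = 0.0084). NMU measured 4.11, 2.12 and 9.66 CPM on day 3 and 0.528, 2.13 and 22.6 CPM on day 6, groups that overlap (0.85 ± 1.23, adjusted p = 0.684). It then reached 67.2, 24.6 and 474 CPM on day 9 and 780, 290 and 621 CPM on day 12, with the day 9 libraries lying far apart. EGF, epidermal growth factor, was at 0.893, 1.004 and 0.831 CPM on day 3, 0.211, 0.462 and 1.07 CPM on day 6 and 19.1, 8.21 and 3.99 CPM on day 12, and its day 6 difference did not pass the test (adjusted p = 0.857). IL24, a cytokine of the interleukin 10 family, had 0 counts on days 0 and 3 and at most 0.357 CPM on day 6, but 19.2, 17.5 and 11.2 CPM on day 12 (day 6 against day 3, adjusted p = 0.648). C1QTNF3, a C1q-related secreted protein, was at 9.92, 0.446 and 21.0 CPM on day 3 and 4.22, 4.34 and 4.46 CPM on day 6, within the day 3 range. TNN, a tenascin, was already at 7.42, 3.68 and 4.99 CPM on day 3 against 0.506 to 1.15 CPM on day 0.

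Of 7 receptors and other surface proteins, 4 rose by day 6. ENTPD1 (CD39), which removes extracellular ATP and ADP, was at 155, 128 and 181 CPM on day 3 and 412, 649 and 449 CPM on day 6 (log2 fold change 1.89 ± 0.36, adjusted p = 0.0015). GPER1, the G protein-coupled oestrogen receptor, rose from 14.5, 8.03 and 15.2 CPM to 39.6, 87.5 and 53.6 CPM (2.44 ± 0.55, adjusted p = 0.0049). In ovary and oviduct GPER1 stayed between 3.25 and 17.7 CPM on every day. LRRN1, a leucine-rich repeat protein of the neuronal family, rose from 11.2, 9.81 and 11.4 CPM to 133, 66.6 and 105 CPM (3.42 ± 0.80, adjusted p = 0.0061). PCDHAC2, a protocadherin, did not differ between these days beyond its spread, with 64.3, 19.2 and 51.0 CPM on day 3 and 29.3, 69.4 and 16.3 CPM on day 6 (-0.05 ± 0.60, adjusted p = 0.968).

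Of 8 members of membrane traffic and cytoskeleton, 7 rose by day 6. ANXA4, a calcium-dependent membrane-binding annexin, was at 170, 231 and 240 CPM on day 3 and 700, 808 and 1036 CPM on day 6 (log2 fold change 2.18 ± 0.44, adjusted p = 0.0024), and it reached 1431, 2601 and 1682 CPM on day 12. Others that rose, named after the values were seen, were the Rab effector SYTL5, the ESCRT component VPS37A, the Rab GTPase-activating protein TBC1D30, villin (VIL1) of the microvillus and ankyrin 2 (ANK2). The log2 fold changes of these 5 lay between 1.84 and 2.64. MYOM1, a sarcomeric M-band protein, was the member of this group that was not called, with 13.7, 18.0 and 14.1 CPM on day 3 and 5.07, 20.7 and 32.8 CPM on day 6 (adjusted p = 0.609).

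Among 6 regulators, 3 rose. PAX2, a transcription factor of the developing Müllerian duct and kidney, was at 115, 114 and 104 CPM on day 3 and 273, 587 and 380 CPM on day 6 (log2 fold change 2.09 ± 0.34, adjusted p = 0.00052). It was practically absent from the ovary, where no library passed 0.849 CPM. TCTN3, a tectonic protein of the ciliary transition zone, rose from 71.9, 56.9 and 79.1 CPM to 266, 585 and 357 CPM (2.72 ± 0.43, adjusted p = 0.00048). TRIM9, a ubiquitin ligase, was uneven on day 6, with 12.3, 12.4 and 17.1 CPM on day 3 and 60.6, 35.1 and 8.92 CPM on day 6 (adjusted p = 0.278). Among 11 members with other or less settled roles 8 rose, and among the 32 members without a symbol 17 rose.

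Of the members without a symbol, ENSSSCG00000020659 had the widest swing. It measured 4.38, 5.91 and 1.87 CPM on day 3, 8.97, 33.4 and 120 CPM on day 6, 647, 341 and 1076 CPM on day 9 and 2794, 1306, 685 and 919 CPM on day 15. No ovarian library exceeded 0.857 CPM. ENSSSCG00000011106 was likewise higher late than early, with 32.0, 40.7 and 38.2 CPM on day 3, 251, 352 and 319 CPM on day 6 and 1059, 527, 601 and 895 CPM on day 15. ENSSSCG00000020659 rose from day 3 to day 6 by 3.93 ± 1.02 (adjusted p = 0.011, lost in 1 of 11 alternatives) and ENSSSCG00000011106 by 3.25 ± 0.59 (adjusted p = 0.0012). ENSSSCG00000011808 had 1 count in all on day 3 and 7.70, 13.3 and 5.89 CPM on day 6, and 0 counts in every oviductal library. The lowest day 6 differences were those of ENSSSCG00000009882 (-1.40 ± 1.23) and ENSSSCG00000017643 (-0.32 ± 0.59), and neither passed the test. ENSSSCG00000009882 was uneven within days, with 249, 15.2 and 17.4 CPM on day 9.

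**Figure D4:**
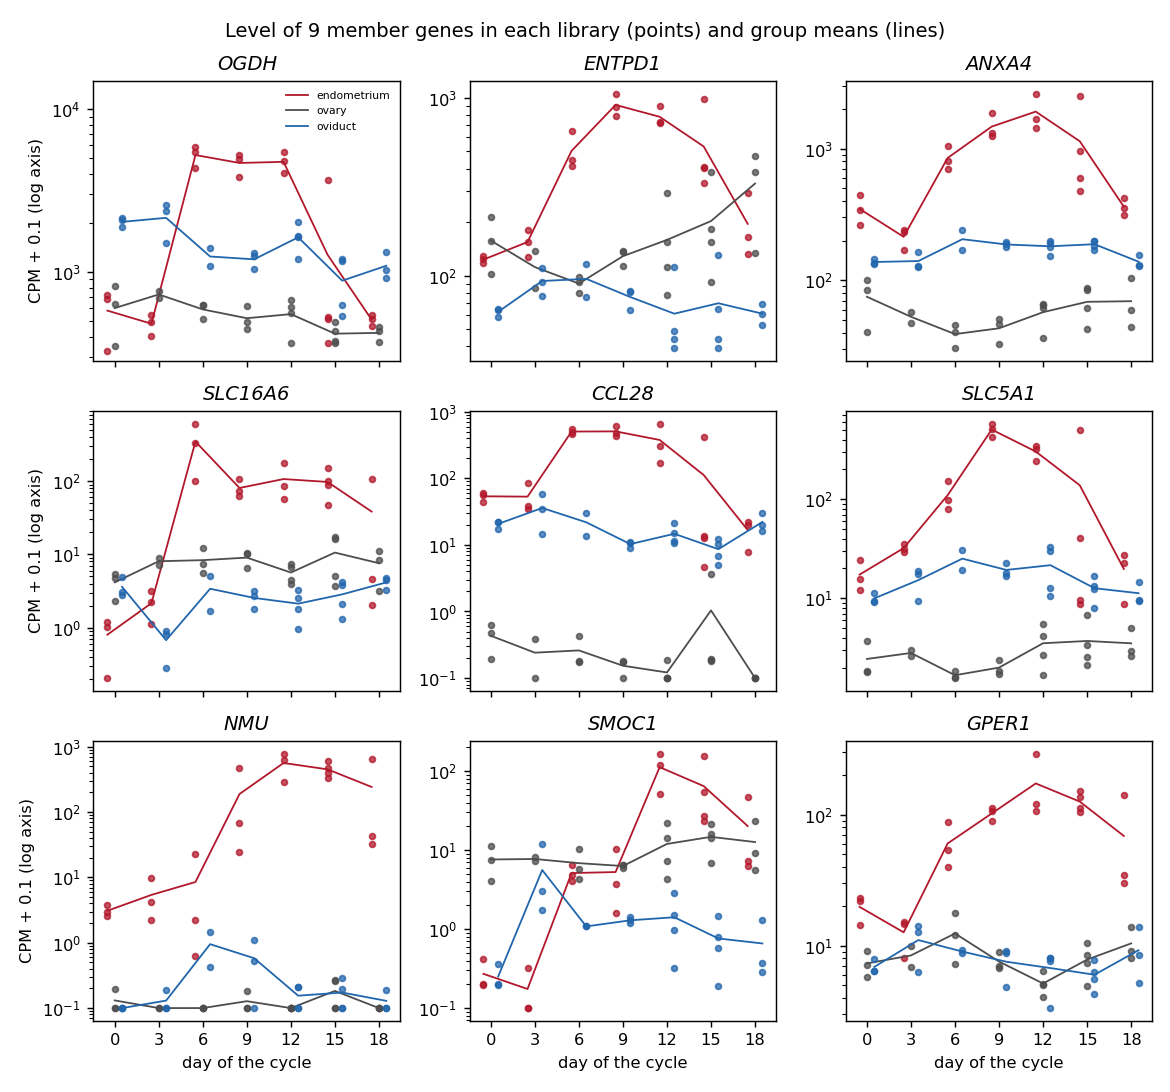
Level of 9 members in each library (points) and group mean (lines), as CPM + 0.1 on a log axis, by day of the cycle in endometrium, ovary and oviduct. OGDH, ANXA4, ENTPD1, CCL28 and SLC16A6 are high from day 6, whereas NMU and SMOC1 reach their highest endometrial means on day 12.

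Day 15 was compared with day 6 to follow the members into the late luteal phase. Of the 94 members, 20 were called lower on day 15, against 13.3% of all genes tested, and 7 were called higher, against 15.1%. Here library 2 of day 15 decided the count, since without it 53 members were lower and 6 higher, with a median log2 fold change of -1.28 in place of -0.36. Without it 19.8% of all genes were called lower. That library was singled out by its high values in these same members. Results without it, here and below, therefore show how much rests on it and are no separate test. Leaving out library 1 or library 2 of day 6 gave 16 and 13 calls in place of 27, and a fit of days 6 and 15 alone gave 9. OGDH showed the split plainly, with 529, 3697, 366 and 511 CPM in the 4 libraries of day 15. Its log2 fold change against day 6 was -2.07 ± 0.55 with all libraries (adjusted p = 0.0094) and -3.47 ± 0.28 without library 2 (adjusted p = 8.7e-07). CCL28, at 12.4, 418, 13.5 and 4.58 CPM, did not pass the test with all libraries (-2.22 ± 0.97, adjusted p = 0.0935) and passed it without library 2 (-5.63 ± 0.55). SLC5A1, at 40.02, 494, 8.70 and 9.41 CPM, passed the test only without library 2 (-2.48 ± 0.49, adjusted p = 0.0008).

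Other members were higher on day 15 than on day 6. NMU was at 607, 477, 391 and 327 CPM on day 15, every library far above those of day 6 (log2 fold change 5.73 ± 1.35, adjusted p = 0.0046). SMOC1 was at 54.6, 154, 23.3 and 26.6 CPM, also above day 6 in each library (3.66 ± 0.85, adjusted p = 0.0041), and ENSSSCG00000020659 rose by 4.74 ± 0.99 on the log2 scale (adjusted p = 0.0021). These 3, TBC1D30 and ENSSSCG00000009882 passed the test with and without library 2. EGF passed it (3.09 ± 1.11, adjusted p = 0.0446) with library 2, at 18.2 CPM, and not without it (0.73 ± 0.84, adjusted p = 0.52), the 3 other libraries being at 0.509 to 1.28 CPM.

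Between day 15 and day 18, when a cycle without conceptus returns to the follicular phase, 9 members were called lower, against 0.554% of all genes, and 0 were called higher, against 0.456%. An unadjusted p under 0.05 was found for 66 of the 94 members and for 2524 of all 15341 genes tested. The fitted change was below 0 in 92 of the 94. The members' median log2 fold change was -1.51, where that of all genes was -0.02. Called lower were ENTPD1, TCTN3, OPTC, ADCK5, a putative kinase, TBC1D30 and the unnamed ENSSSCG00000005265, ENSSSCG00000024326, ENSSSCG00000030904 and ENSSSCG00000010501. TBC1D30 was at 200, 177, 299 and 150 CPM there and at 95.2, 56.0 and 35.1 CPM on day 18 (-1.82 ± 0.32, adjusted p = 0.0152). ENTPD1 was at 405, 988, 407 and 333 CPM on day 15 and at 290, 164 and 132 CPM on day 18 (-1.52 ± 0.34, adjusted p = 0.0438), and the call was lost in 7 of 12 alternatives, as was that of TCTN3, while that of OPTC was lost in 8. Without library 2 of day 15 the median was -0.61 and 3 members were called lower, namely TBC1D30, ADCK5 and ENSSSCG00000024326. The count was 5 without library 1 of day 15, 1 without its library 3 and 27 without its library 4, and it was 19 without library 1 of day 18 and 0 without library 2 or library 3 of day 18, as in a fit of the 2 days alone.

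Against day 3, 9 members were still higher on day 18, where 3.11% of all genes were called higher, and 1 was lower, where 3.62% were. The higher members were SMOC1, NMU, SLC16A6, GPER1, ABHD4, SOWAHA, ENSSSCG00000020659, ENSSSCG00000011106 and ENSSSCG00000012925, and the lower one was TNN (log2 fold change -2.39 ± 0.61, adjusted p = 0.0252). Library 1 of day 18 was far above the others in several of these. NMU was at 652 CPM in it and at 43.2 and 32.0 CPM in the others, SLC16A6 at 109 against 1.93 and 4.53 CPM, and SMOC1 at 46.6 against 7.28 and 6.27 CPM. Without that library 3 members were called, and leaving out libraries 1, 2 or 3 of day 3 gave 3, 6 and 4. Every day 18 library of NMU and of ENSSSCG00000020659 (2154, 404 and 277 CPM) was nevertheless above every library of day 3.

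The same days were examined in ovary and oviduct, where 71 and 79 of the members passed the filter on low counts and the others were too low to be tested. In the ovary 0 members were called between day 6 and day 3, between day 12 and day 3 or between day 18 and day 15, and neither was any gene (0% of 15638 genes higher and 0% lower in each). DESeq2 also called 0 members in these 3 comparisons, where it called 73, 73 and 15 genes in all. An unadjusted p under 0.05 was found for 7, 8 and 3 of the 71 members and for 967, 899 and 870 of all 15638 genes. The largest fitted differences of day 12 in the ovary were those of ENSSSCG00000009882 (log2 fold change 2.86 ± 1.37) and C1QTNF3 (2.58 ± 1.11), and the lowest those of LRRN1 (-0.93 ± 0.97) and PCDHAC2 (-0.88 ± 0.64), none of which passed the test. In the oviduct 0 members were called between day 6 and day 3, as were 0% of all 15665 genes in either direction. An unadjusted p under 0.05 was found for 13 of the 79 members and for 1199 of all 15665 genes. DESeq2 called 2 members there and 62 genes in all. Between day 18 and day 15, 0 were called, against 0.00638% of genes higher and 0.00638% lower. Here 12 of the 79 members had an unadjusted p under 0.05, as did 2518 of all 15665 genes. DESeq2 called 2 members in this comparison and 170 genes in all.

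Oviduct day 12 against day 3 was the one comparison outside the endometrium in which members passed the test. Of the 79 tested, 7 were lower, against 2.52% of all genes, and 1 was higher, against 1.05%. TNN was at 7.09, 1.44 and 6.42 CPM on day 3 and at 0.393, 0.669, 0.429 and 0.586 CPM on day 12 (log2 fold change -3.43 ± 0.59, adjusted p = 0.0050). TMEM144, a transmembrane protein of the sugar transporter kind, was at 106, 91.5 and 216 CPM against 42.0 to 61.0 CPM (-1.64 ± 0.24, adjusted p = 0.0039). CCL28 was at 34.8, 14.5 and 58.0 CPM against 10.6 to 21.3 CPM, groups that overlap (-1.47 ± 0.37, adjusted p = 0.0377). ENSSSCG00000002823, TRIM9, ABTB3 and KIAA1191 were the other lower ones, and ENSSSCG00000026007 was the higher one, from 0.460, 0.541 and 0.622 CPM to 2.26, 5.24, 3.32 and 3.71 CPM (2.49 ± 0.60, adjusted p = 0.0319). VEPH1 had 3 counts in all on day 3, and its day 12 level was 13.3-fold higher with a 95% counting interval from 4.30 to 66.9, which did not pass the test (adjusted p = 0.268). The count of 8 fell to 2 without library 1 of day 3 or library 3 of day 12, to 3 without library 2 or library 4 of day 12 and to 5 without library 3 of day 3, and a fit of the 2 days alone gave 3.

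Whether the early change of a member was larger in the endometrium than elsewhere was tested as the difference between the changes from day 3 to day 6. A difference was counted only for members that also passed the filter in the other tissue, which were 79 in the oviduct and 71 in the ovary. Among the 71, GAD2, SYTL5 and ENSSSCG00000028951 had at most 3 counts in all in the ovary on each of days 3 and 6. Their ovarian change could not be measured. Against the oviduct 38 of the 79 rose more in the endometrium, where 4.54% of the 14874 genes that passed in both tissues did, and 0 rose less, where 4.43% did. Against the ovary 22 of the 71 rose more, where 1.11% of 14637 genes did, and 0 rose less, where 1.99% did. The 15 and 23 other members were too low in the other tissue and are not counted. OGDH differed from both, by 4.68 ± 0.76 on the log2 scale against the oviduct (adjusted p = 0.00020) and by 3.55 ± 0.76 against the ovary (adjusted p = 0.0091). In the oviduct it had been at 2566, 1508 and 2378 CPM on day 3, above the endometrium of that day, and at 1081 and 1409 CPM on day 6, below it. ABHD4 (3.70 ± 0.40 and 3.19 ± 0.59), TCTN3 (2.95 ± 0.55 and 2.53 ± 0.52), SLC16A6 (5.35 ± 1.73 and 7.14 ± 1.41) and ANXA4 (1.90 ± 0.49 and 2.25 ± 0.64) also differed from both tissues. GPER1 rose more than in the oviduct (3.06 ± 0.78, adjusted p = 0.011) and its difference from the ovary did not pass the test (1.51 ± 0.69, adjusted p = 0.28). Against the ovary the count lay between 9, without library 1 or library 3 of ovary day 3, and 21 when single libraries were left out. It was 12 without library 1 of endometrium day 3 and 14 without library 2 of endometrium day 6 or of ovary day 6. By the methods the tissues of a day came from the same gilts, which the main model does not take up. With libraries of the same day and number blocked as if from 1 gilt, 11 members were called against the ovary. Against the oviduct it was 25 without library 2 of oviduct day 6 and 20 without library 3, and otherwise stayed within 1.5 times the count. Ovary day 3 and oviduct day 6 had 2 libraries each, so leaving 1 out assumes that the other varies like the rest. The changes from day 15 to day 18 differed for 0 of these members against either tissue in edgeR's test. Against the ovary 0.0137% of genes rose more in the endometrium and 0% less, and against the oviduct 0.00672% and 0.0134%. An unadjusted p under 0.05 was found for 32 of the 71 and 27 of the 79 members. Over all genes of these models, which include genes that did not pass the filter in both tissues, the sets are wider. Against the ovary it was found there for 1925 of 16557 genes and 39 of 94 members. Against the oviduct it was found for 2222 of 16292 genes and 29 of 94 members. DESeq2 called 6 and 11 of these members.

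On day 6, 65 of the 93 members with 1 CPM on that day had every endometrial library above every library of ovary and oviduct. Of all genes with 1 CPM, 16.3% did. The choice of members favours this order of tissues, so these shares and the means below are a description and no test. Members had to rise in the endometrium, while genes barely detected elsewhere passed as flat through the added 1. On both days that the rule used there, 34 members had means under 1 CPM in ovary and 21 in oviduct. The day 6 mean was highest in the endometrium for 84 members, in the oviduct for 9 and in the ovary for 1. On day 3 the endometrium was the highest tissue for 56. OGDH was among those that changed order, moving from below the oviduct on day 3 to above it on day 6.

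A run of 6 neighbouring genes shared the pattern. The identifiers of TCTN3, ENTPD1, ENSSSCG00000010498, ENSSSCG00000010499, ENSSSCG00000010501 and CCNJ, the last a cyclin, follow each other in the count table, and all were members. Gene order was also taken from RefSeq for the assembly Sscrofa11.1, which differs from the one used for counting. Only protein-coding genes whose symbol matched a single identifier of the count table were placed. Other genes may therefore lie between genes that are neighbours in this order. Among the genes placed, TCTN3, ENTPD1 and CCNJ are next to each other. The genes on either side, ALDH18A1 and ZNF518A, had day 9 to day 0 ratios of 1.35 and 1.36, against 4.48 in CCNJ to 21.7 in ENSSSCG00000010501 within the run. TCTN3 and ENTPD1 rose by day 6, as did ENSSSCG00000010499 (log2 fold change 3.02, adjusted p = 0.0468) and ENSSSCG00000010501 (2.56, adjusted p = 0.0129), while CCNJ (0.68, adjusted p = 0.366) and ENSSSCG00000010498 (1.39, adjusted p = 0.253) did not pass the test. Whether reads were counted by strand is not given in the sources used here, so reads of overlapping or adjoining genes cannot be separated, and their part in the shared pattern was not tested. Elsewhere LRP12, a low-density lipoprotein receptor-related protein, and DPYS, dihydropyrimidinase, were neighbours in the same order. In all, 5 of 59 members placed in that order had another member as the next gene, as did 1.07% of the 10955 genes placed.

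**Figure D5:**
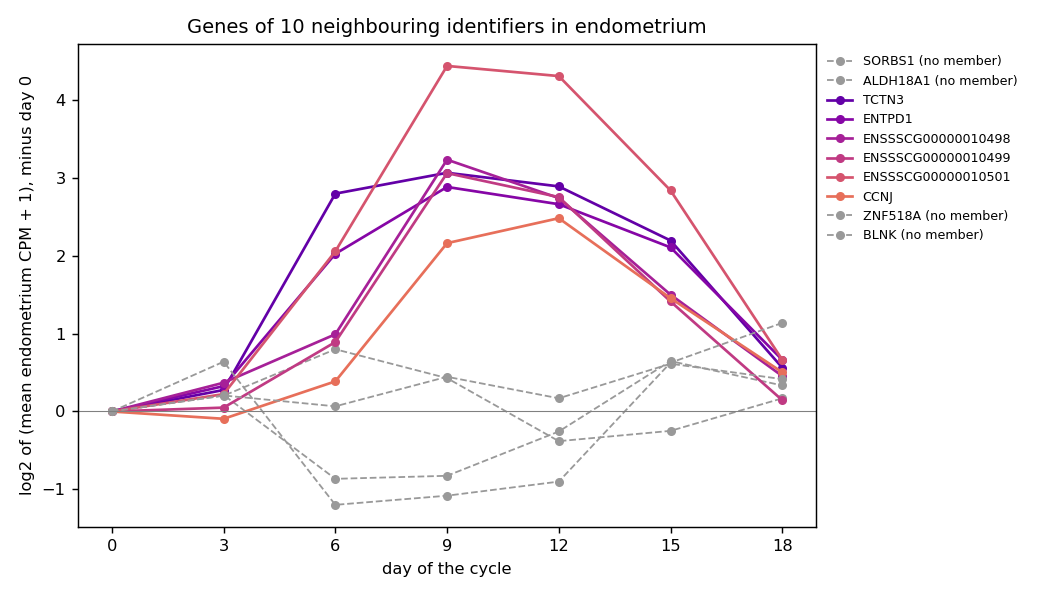
Mean endometrial level of 10 genes with neighbouring identifiers in the table, as log2 of CPM + 1 minus day 0 (vertical axis), by day of the cycle (horizontal axis). The 6 members in the middle (solid lines) lie above the 4 flanking genes (dashed grey) on days 9, 12 and 15.

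The members were set beside lists of other genes with related roles. Of all genes tested, 8.86% were called higher and 10% lower on day 6 than on day 3. The lists were chosen with earlier results of these data known. Their shares are therefore a description, and a share above that of all genes is no independent result. Of 34 tested genes of nutrient and ion transport, 10 rose from day 3 to day 6 and 2 fell, with a median log2 fold change of 0.84. SLC3A1, SLC23A1, SLC27A6, SLC28A2, SLC31A2, SLC26A4 and SLC30A2 were among those that rose, and SCNN1B and FXYD3 fell. Of 16 genes of steroid receptors and steroid metabolism 5 rose, including the progesterone receptor membrane components PGRMC1 and PGRMC2, HSD11B2, which inactivates cortisol, and the member GPER1. In the same list 3 fell, NR3C1, HSD11B1 and CYP24A1 (median 0.29). Of 26 genes of growth factor, Wnt and BMP signalling 6 rose, among them IGF1, IHH, a progesterone-regulated hedgehog ligand of uterine epithelium, and FOXA2 of the uterine glands. Nearly as many, 5, fell, namely LIFR, IGFBP7, WNT2, FZD4 and LGR5 (median 0.11). In 15 uterine secretory proteins and protease inhibitors 2 rose and 3 fell (median -0.26). In 19 genes of the prostaglandin pathway 1 rose, HPGD, which degrades prostaglandins, and 2 fell, PTGER3 and ALOX5 (median -0.47). Of 19 immune and cytokine genes 1 rose, IFNE, and 10 fell, including IL15, CXCL14, TLR4 and C3 (median -1.64). From day 15 to day 18, 1 transport gene rose (SLC34A2) and 1 fell (SCNN1A), 1 growth factor gene fell (CHRDL1), 1 immune gene rose (TLR2), and 0 genes of the other 3 lists passed the test.

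Markers of cell types moved between days 3 and 6 too, and their part in the members' rise was not tested. The summed level of 5 epithelial markers was 2437 to 2635 CPM on day 3 and 2326 to 5117 CPM on day 6, ranges that overlap, and 1 of the 5 was called higher and 0 lower. FOXA2, the gland marker, was called higher, with 60.7 to 86.0 CPM on day 3 and 77.4 to 147 CPM on day 6. The sum of 5 stromal markers was 9209 to 11240 CPM on day 3 and 5280 to 6046 CPM on day 6 (2 of 5 fell), that of 2 endothelial markers 376 to 448 and 156.1 to 177 CPM (1 of 2 fell), and that of 5 leukocyte markers 81.2 to 159 and 26.4 to 43.7 CPM (4 of 4 tested fell). None of the 4 smooth muscle markers, the 1 ciliated cell marker, the 1 oviduct secretory marker, the 1 tested follicular and steroidogenic marker or the 2 markers of cycling cells was called. Between days 15 and 18, 0 markers of these classes were called. In library 2 of day 15 the epithelial sum was 2995 CPM, within the 2964 to 4047 CPM of the other libraries, FOXA2 was 208 CPM against 99.6 to 135 CPM, and the endothelial sum was 170 CPM against 404 to 514 CPM.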

How the data were processed

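The deposited table held read counts per gene for 66 libraries of endometrium, ovary and oviduct, made by the authors by trimming 13 bases from each read, mapping with TopHat2 to the pig genome and counting Ensembl genes with featureCounts. The processing notes also name FastQC, Cufflinks, Cuffdiff and edgeR, and the strand setting of the counting is not given in the sources used here. Libraries are named by their number in the table. One endometrial sample of day 12 was not analysed here.

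Gene symbols came from a table of identifiers. Members were found from CPM as described in the report. Counts were fitted with edgeR 4.0.16 in R 4.3.3, with 1 model per tissue. Differences between tissues came from 1 model of endometrium and ovary and 1 of endometrium and oviduct. Each fit used TMM factors, a filter on low counts, the quasi-likelihood test and Benjamini-Hochberg adjustment over all genes tested, called under 0.05. The code was tested on simulated data. Alternatives were DESeq2 1.42.0, its size factors, no filter, only the groups compared, a replicate block and each library left out. A fold against 0 counts was bounded with 3 counts over the group, and intervals and floors cover counting error only.

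The members and gene lists were chosen with earlier results of these data known, and roles were grouped after membership was seen. Named genes were the 10 members with the highest endometrial mean on day 9, the 5 with the largest day 9 to day 0 ratio, the 4 largest and 4 smallest log2 fold changes of endometrium day 18 against day 15 and of day 6 against day 3, the 2 largest and 2 smallest of day 12 against day 3 in ovary and in oviduct, members found in the lists, and those nearest each limit of the rule, and any other gene named was chosen after its values were seen. No 2 libraries of a group were identical, and the lowest chi-squared per degree of freedom among 74 pairs was 10.8. Not every member is reported here by name.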

Additional observations from a re-analysis of the deposited data

Results flagged for a closer look

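In groups of 4 libraries, a library was singled out where its gap to the nearest other exceeded Dixon's 95% critical value as a share of the range, and chance does this in about 1 in 20 groups. Of 145 groups of named members tested, 31 had such a library, and 21 of these lay in endometrium day 15, where library 2 was the highest each time. Members share libraries, and some were named by their change from day 15 to day 18. The count is therefore a description and cannot be set against that rate. The members concerned were OGDH (3697 CPM), ENTPD1 (988 CPM), CCL28 (418 CPM), SLC5A1 (494 CPM), ENSSSCG00000026522 (292 CPM), TRIM9 (19.0 CPM), CCK (8.54 CPM), ENSSSCG00000028951 (26.5 CPM), OPTC (110 CPM), AGMO (25.1 CPM), AFP (1.49 CPM), ENSSSCG00000011808 (18.7 CPM), C1QTNF3 (99.3 CPM), EGF (18.2 CPM), ENSSSCG00000017643 (114 CPM), LRRN1 (48.3 CPM), VEPH1 (2.88 CPM), ENSSSCG00000026007 (116 CPM), IL24 (18.7 CPM), MYOM1 (98.3 CPM) and ENSSSCG00000022435 (44.1 CPM).

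In ovary day 12 the libraries apart were those of ANXA4 (lowest, library 1, 36.2 CPM), LRRN1 (highest, library 1, 21.5 CPM) and MYOM1 (highest, library 1, 7.99 CPM). In ovary day 15 the libraries apart were those of CCL28 (highest, library 1, 3.49 CPM) and TRIM9 (highest, library 4, 80.0 CPM). In oviduct day 12 the libraries apart were those of ENTPD1 (highest, library 1, 112 CPM), C1QTNF3 (highest, library 1, 46.9 CPM), LRRN1 (highest, library 4, 30.2 CPM), VEPH1 (highest, library 2, 3.91 CPM) and GPER1 (lowest, library 1, 3.25 CPM). None was found in oviduct day 15 among the named members.

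The change from day 3 to day 6 differed between tissues by the test of the difference itself for 23 members against the ovary and for 39 against the oviduct, of which 22 and 38 also passed the filter in the other tissue, each time with the larger rise in the endometrium.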

How the results depend on the processing

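The count of members called between endometrium days 6 and 3 stayed within 1.5 times 56 in each alternative, from 45 to 66, and no named value that was called changed sign. With single libraries left out, the counts ran from 13 to 59 for day 15 against day 6 (27 with all libraries), 0 to 27 for day 18 against day 15 (9), 3 to 10 for day 18 against day 3 (10), 2 to 11 for oviduct day 12 against day 3 (8) and 0 to 4 for oviduct day 18 against day 15 (0). For the changes between tissues over all 94 members, 23 called against the ovary and 39 against the oviduct for days 3 to 6, they ran from 9 to 22 against the ovary and 20 to 36 against the oviduct for days 3 to 6, and from 0 to 6 and 0 to 9 for days 15 to 18. Fitting only the groups compared gave 9 calls for day 15 against day 6, 0 for day 18 against day 15, 3 for oviduct day 12 and 42 for the day 3 to 6 difference from the ovary. Without the filter day 18 against day 15 gave 3 calls. DESeq2 gave 30 there, 13 for oviduct day 12, 2 for oviduct day 6 and 2 for oviduct day 18. It gave 8 and 13 for the day 15 to 18 differences from ovary and oviduct. Over all genes DESeq2 called 714, 1208, 62 and 170 in those within-tissue comparisons, and 164 in the difference from the ovary. The causes were not tested.

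Libraries with the same number in different tissues of a day correlated in their deviations with a median of 0.127, from -0.142 to 0.463, and 43 of 63 pairs were over 0.1. For different numbers the median was -0.049 and 13 of 148 pairs were over 0.1. By the methods all tissues of a day came from 3 gilts, so libraries of different tissues share gilts. The correlations are a hint from the data that numbers may mark a gilt across tissues. Not every pair was over 0.1 and the labels do not tie numbers to animals, so the samples were not treated as paired in the main tests. Across days of 1 tissue the median for equal numbers was -0.019. Within a tissue the replicate block was the number alone across days, which does not take up a gilt shared between tissues. It gave 17 for day 18 against day 15 and 4 for oviduct day 12. Between tissues the block was day and number together, which gave 12 for the day 3 to 6 difference from the ovary. The other counts stayed within 1.5 times. The members of low count, 34 under 1 CPM in ovary and 21 in oviduct on days 0 and 9, limit what could be detected there.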
